A study of Mus musculus with 12 samples.

Results

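Response genes of BMP and TGF-beta signals, 9 in all, were followed in HT22 cells, an immortalized mouse line described as hippocampal neuronal, after silencing of Ncoa4, chelation of iron, or both. The genes were taken by symbol: the inhibitors of DNA binding Id1, Id2, Id3 and Id4, the inhibitory SMADs Smad6 and Smad7, the ligand Bmp4, and the matricellular genes Ctgf and Cyr61. All 9 were found among the 24343 genes used. RNA-seq of total RNA gave 12 libraries in 4 groups of 3 biological replicates. The siControl cells received control siRNA and normal iron, and the siNCOA4 cells received Ncoa4 siRNA and normal iron. The siControl+DFO and siNCOA4+DFO cells had the same siRNAs and were kept for 24 h with 100 µM DFO, which binds iron. Every group was therefore transfected, and 1 cell line was studied. The study's methods give 1 Ncoa4 siRNA and 1 control siRNA. Effects of lower Ncoa4 and other effects of that siRNA sequence therefore cannot be told apart. Levels are FPKM, fragment counts divided by transcript length and by library size, so that levels of different genes can be set side by side.

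BMP and TGF-beta ligands bind paired serine/threonine kinase receptors that phosphorylate SMAD proteins. SMAD1, SMAD5 and SMAD9 carry BMP signals and SMAD2 and SMAD3 carry TGF-beta and activin signals, in both cases with SMAD4. The Id genes are classical BMP targets whose products bind E proteins and keep basic helix-loop-helix factors off DNA, which holds back differentiation in neural cells. Smad6 and Smad7 are induced by the pathway and feed back on it, Smad6 mainly on BMP signals and Smad7 on both branches. Ctgf (also Ccn2) and Cyr61 (also Ccn1) encode secreted matrix-associated proteins that respond to TGF-beta and to the YAP/TEAD transcription factors.

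The largest differences among these genes came with DFO, and they went in opposite directions inside a family. Smad7 rose from a mean of 3.66 to 38.0 FPKM between siControl and siControl+DFO, while Smad6 fell from 3.32 to 0.318 FPKM. Cyr61 rose from 19.8 to 250.5 FPKM, while Ctgf had 31.8 and 32.6 FPKM. Id3 fell from 35.5 to 7.04 FPKM and Id4 rose from 2.34 to 4.80 FPKM. Silencing of Ncoa4 lowered another set, with Ctgf falling from 31.8 to 15.8 FPKM, Id3 from 35.5 to 20.1 FPKM and Id1 from 24.0 to 17.4 FPKM. The rises of Smad7 and Cyr61 with DFO were smaller in the Ncoa4-silenced cells, with the test for Smad7 near its threshold.

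The stretches upstream of the RefSeq starts of Cyr61, Id3 and Smad6 are shown because these genes had large changes with DFO in opposite directions. Each is 250 bases before the RefSeq transcript start in GRCm38.p6, written 5′ to 3′ on the strand of the gene. Capitals mark matches to 4 short motifs searched on both strands: GGCGCC, a GC-rich SMAD1/SMAD5 element that reads the same on both strands; CAGAC, the core of the SMAD3/SMAD4 element; CATTCC, the TEAD element; and ACGTG, the core of the hypoxia response element.
Cyr61, chr3:145649986-145650235, minus strand: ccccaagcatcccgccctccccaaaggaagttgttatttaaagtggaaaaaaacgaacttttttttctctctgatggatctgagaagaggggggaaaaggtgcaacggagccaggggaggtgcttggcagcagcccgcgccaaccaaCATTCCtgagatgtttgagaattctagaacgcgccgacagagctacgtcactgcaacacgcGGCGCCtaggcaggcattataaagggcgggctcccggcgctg
Id3, chr4:136143572-136143821, plus strand: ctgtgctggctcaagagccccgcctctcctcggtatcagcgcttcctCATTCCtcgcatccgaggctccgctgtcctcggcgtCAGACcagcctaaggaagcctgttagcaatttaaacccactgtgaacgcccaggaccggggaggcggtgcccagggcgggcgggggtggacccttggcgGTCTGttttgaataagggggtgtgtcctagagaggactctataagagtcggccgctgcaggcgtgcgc
Smad6, chr9:64022060-64022309, minus strand: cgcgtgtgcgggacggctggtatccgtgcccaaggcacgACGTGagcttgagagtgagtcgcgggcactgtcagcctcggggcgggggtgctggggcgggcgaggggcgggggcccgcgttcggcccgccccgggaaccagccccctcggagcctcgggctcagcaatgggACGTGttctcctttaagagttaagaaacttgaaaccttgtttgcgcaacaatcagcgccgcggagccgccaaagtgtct
In the Cyr61 stretch the TEAD letters began 103 bases before the start and the GC-rich letters 42 bases before it. The Id3 stretch held 2 SMAD cores, 1 on each strand, and 1 TEAD match. It lies before the RefSeq start but inside the Id3 gene interval of GENCODE, which begins at 136143497. The Smad6 stretch held 2 hypoxia cores and no match to the other motifs. RefSeq promoter entries of 300 bases (250 before and 50 after the start) were matched for 6 of the genes used here, which also include Id2, Id4 and Bmp4. Smad7, Id1 and Ctgf were not searched, so the shares that follow do not cover them. GGCGCC was in 3 of these 6 and in 11.9% of all 32851 promoters of the table. CAGAC was in 2 of 6 against 49.6% of all promoters, CATTCC in 3 of 6 against 14.7%, and ACGTG in 2 of 6 against 19.6%. The 2 with the CAGAC motif were Id3 and Cyr61, and the Cyr61 match lay after the start, outside the stretch shown. A match to letters this short is a description of the sequence and not evidence of binding.

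Ncoa4 itself was lower in every silenced library. Its FPKM was 6.46, 6.19 and 6.02 in siControl, 0.770, 0.952 and 0.891 in siNCOA4, 8.70, 8.31 and 7.52 in siControl+DFO and 0.850, 1.29 and 1.57 in siNCOA4+DFO. Tfrc, which encodes the transferrin receptor and whose transcript is stabilized when iron is low, had group means of 70.3, 72.0, 328 and 240 FPKM in the same order. Few of the neuron markers were present, since 3 of 12 reached a mean of 0.5 FPKM. The summed level of the 12 was 25.2 to 29.3 FPKM in siControl and 20.4 to 26.5 in siNCOA4. It was 24.5 to 26.7 FPKM in siControl+DFO and 19.0 to 24.4 in siNCOA4+DFO. Of 8 fibroblast and mesenchymal markers 7 reached that level, and their summed level was 3125 to 3545 FPKM in siControl, 2318 to 2514 in siNCOA4, 1857 to 1936 in siControl+DFO and 1642 to 1842 in siNCOA4+DFO. The part of these markers in the results was not tested. In bulk RNA, fewer cells of a type and less RNA per cell cannot be told apart. FPKM keeps no depth, but the steps between low values gave relative depths of 0.93 to 1.41, the first siControl library being 1. About 2630000 to 3990000 fragments per library were estimated. This is an estimate of the fragments behind the FPKM values and not of the reads sequenced, of which the study states a larger number per sample.

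The level of each gene in each library is shown in the plot by group.

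**Figure D1:**
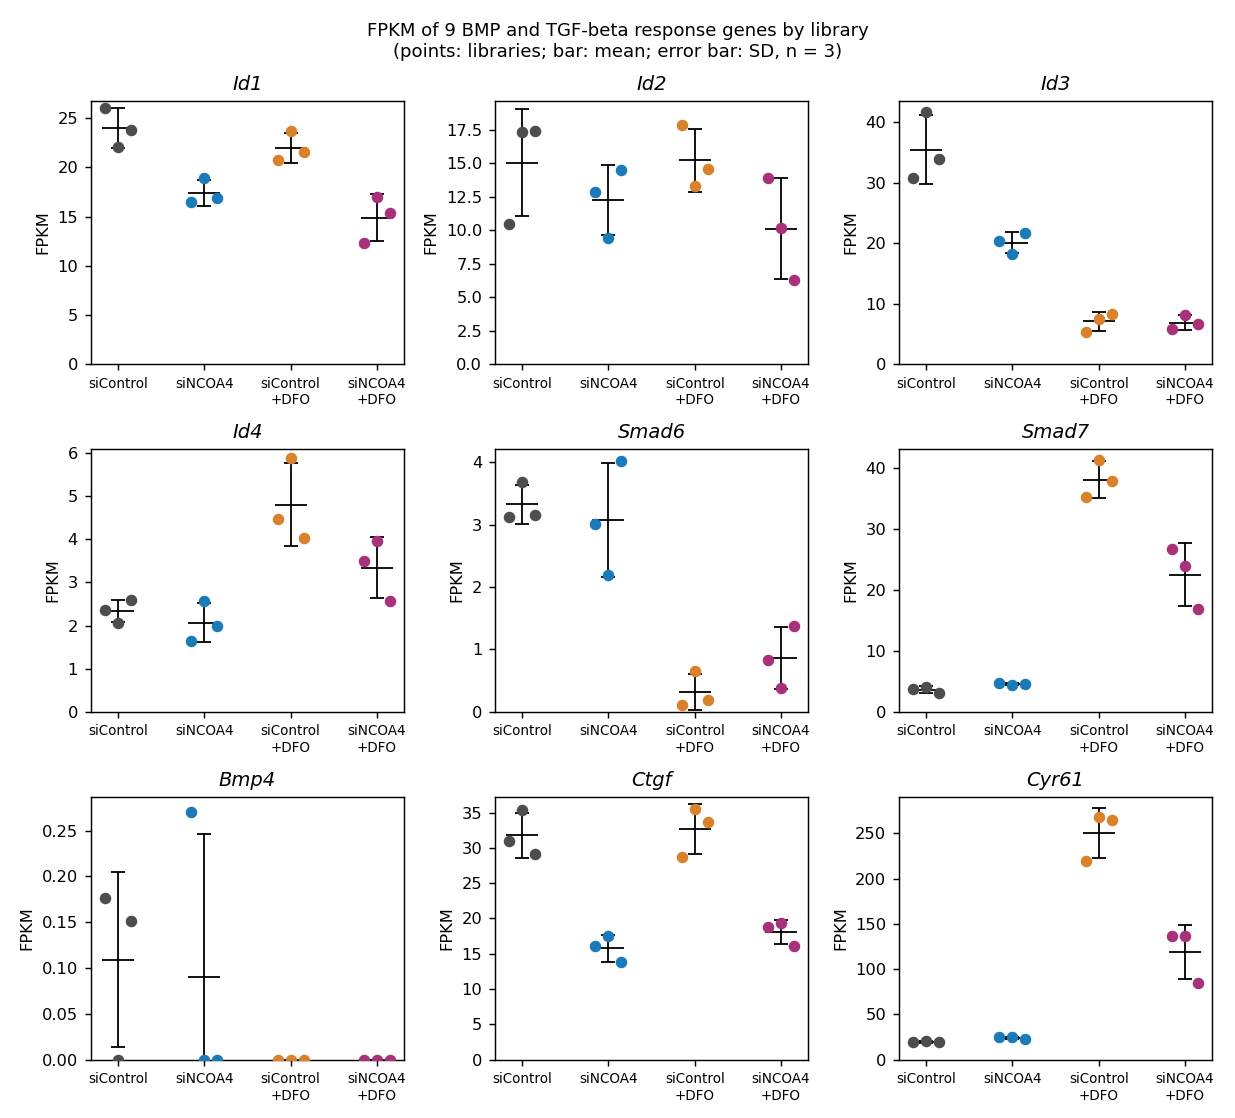
FPKM of the 9 genes (y axis, linear, starting at 0) in the 3 libraries of each group (x axis). Points are libraries, horizontal bars are group means and error bars are SD. Smad7 and Cyr61 are high in both DFO groups and highest with control siRNA, Id3 and Smad6 are low in both DFO groups, and Id1 and Ctgf are low in both siNCOA4 groups.

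Differences between groups were assessed by limma, on log2(FPKM + 0.1), in the 11924 genes that reached 0.5 FPKM in at least 3 libraries, with Benjamini-Hochberg adjustment over all of them, and a gene passed at an adjusted p below 0.05. Of the 9 genes, 8 could be tested and Bmp4 could not. Smad6 reached the minimum in all 6 libraries without DFO and in 3 of the 6 libraries with DFO, and the other 7 tested genes reached it in all 12 libraries. The comparisons share groups, so each one's values are given side by side. Whether the libraries of compared groups overlap is described for single genes, and the share of all genes without overlap was not counted. Beside every log2 change is its standard error.

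The ligand came first in order of role. Bmp4 (chromosome 14, 46383520 to 46390669, minus strand, mm10) had FPKM of 0.177, 0 and 0.151 in siControl and 0.270, 0 and 0 in siNCOA4, and 0 in each of the 6 DFO libraries. Its highest value lay below the minimum for testing, so it gave no comparison. The other 12 BMP-type ligands on the pathway list, among them Bmp2, Bmp6 and Bmp7, were also below that minimum, and none of their values exceeded 0.398 FPKM.

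Smad7 encodes the inhibitory SMAD that blocks type I receptors and recruits ubiquitin ligases to them. Its FPKM was 3.80, 4.12 and 3.05 in siControl and 35.1, 41.2 and 37.7 in siControl+DFO. All 3 DFO libraries lay far above all 3 controls, and the ratio of the means was 10.4. The log2 change was 3.35 (SE 0.16, limma adjusted p = 1.38e-08), the 165th largest rise among the genes tested. In siNCOA4 cells the values were 4.66, 4.40 and 4.53 FPKM, and with DFO they were 26.7, 23.9 and 16.8 FPKM. These DFO libraries also lay above their controls without overlap, with a ratio of the means of 4.96. The log2 change there was 2.26 (SE 0.16, limma adjusted p = 7.63e-07).

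Smad6 (chromosome 9, 63953076 to 64022059, minus strand) encodes the other inhibitory SMAD, which competes with SMAD4 for activated SMAD1. It had FPKM of 3.12, 3.69 and 3.16 in siControl and 0.109, 0.649 and 0.197 in siControl+DFO. No DFO library came near a control library, and the mean was 10.4 times lower. These low values rest on an estimated 1, 7 and 2 fragments, so the size of the fall is imprecise. The log2 change of -3.25 (SE 0.49, limma adjusted p = 0.000126) became -1.73 with a pseudocount of 1, and the test was passed with either. In siNCOA4 the values were 3.01, 2.20 and 4.02 FPKM, and in siNCOA4+DFO 0.833, 0.385 and 1.37 FPKM. These groups did not overlap either. The log2 change was -1.82 (SE 0.49, limma adjusted p = 0.00937), or -1.14 with a pseudocount of 1.

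Smad6 and Smad7 thus moved apart with DFO under either siRNA. Without DFO they were at similar levels per length, 3.32 ± 0.315 and 3.66 ± 0.549 FPKM (SD, n = 3) in siControl. With DFO the means were 0.318 ± 0.290 and 38.0 ± 3.04 FPKM.

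Among the Id genes, Id3 (chromosome 4, 136143497 to 136145755, plus strand) had the highest level in siControl and the largest change. It encodes a helix-loop-helix protein without a DNA-binding region. Its FPKM was 30.7, 41.8 and 34.0 in siControl, 20.4, 18.2 and 21.7 in siNCOA4, 5.36, 7.49 and 8.27 in siControl+DFO and 5.84, 8.14 and 6.60 in siNCOA4+DFO. The siNCOA4 libraries lay below all controls and above all DFO libraries, and the 2 DFO groups overlapped. With DFO the log2 change was -2.33 (SE 0.17, limma adjusted p = 4.52e-07) in siControl cells and -1.55 (SE 0.17, limma adjusted p = 2.31e-05) in siNCOA4 cells. Silencing at normal iron gave -0.81 (SE 0.17, limma adjusted p = 0.0112). Without replicate 2 of siNCOA4 this change was -0.74 with an adjusted p of 0.0531.

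Id4 (chromosome 13, 48261228 to 48266026, plus strand), a family member at low level in these cells, changed with DFO in the other direction. It had FPKM of 2.37, 2.06 and 2.58 in siControl and 4.48, 5.89 and 4.04 in siControl+DFO. The groups did not overlap, and the log2 change was 0.99 (SE 0.23, limma adjusted p = 0.00276). In siNCOA4 the values were 1.65, 2.56 and 1.99 FPKM, and in siNCOA4+DFO 3.50, 3.96 and 2.57 FPKM. The highest siNCOA4 and the lowest siNCOA4+DFO library were almost level. That change was 0.67 (SE 0.23, limma adjusted p = 0.0317), and it lost the call without replicate 1 or 3 of siNCOA4 or replicate 1 or 2 of siNCOA4+DFO, with adjusted p of 0.0761 to 0.119.

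Id1 (chromosome 2, 152736251 to 152737410, plus strand), the family member most often used as a readout of BMP activity, was lower after silencing. Its FPKM was 26.1, 22.0 and 23.8 in siControl and 16.5, 18.9 and 16.9 in siNCOA4. It was 20.8, 23.7 and 21.5 in siControl+DFO and 12.3, 17.0 and 15.3 in siNCOA4+DFO. At either iron level the silenced libraries lay below all libraries with control siRNA. The log2 change was -0.46 (SE 0.12, limma adjusted p = 0.0281) at normal iron and -0.57 (SE 0.12, limma adjusted p = 0.00747) with DFO. The call at normal iron was lost in 4 of 12 fits without 1 library, those without replicate 1 or 3 of siControl or of siNCOA4, with adjusted p up to 0.0962. DFO gave -0.12 (95% confidence interval -0.38 to 0.14) in siControl cells and -0.24 (-0.49 to 0.02) in siNCOA4 cells, and neither passed the test. Without replicate 2 of siNCOA4+DFO, the latter became -0.34 and passed (limma adjusted p = 0.0491).

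Id2 (chromosome 12, 25093799 to 25097140, minus strand), a member with known roles in neural precursors, passed no comparison with all libraries. Its FPKM was 10.4, 17.3 and 17.4 in siControl, 12.9, 9.39 and 14.5 in siNCOA4, 17.8, 13.3 and 14.6 in siControl+DFO and 13.9, 10.2 and 6.29 in siNCOA4+DFO. The replicates of each group spread widely and all groups overlapped siControl. The widest log2 difference was -0.65 between siNCOA4+DFO and siControl+DFO (95% confidence interval -1.25 to -0.04, limma adjusted p = 0.13). It ran from -0.91 to -0.34 when 1 library was left out, and passed only without replicate 1 of siNCOA4+DFO (-0.91, adjusted p = 0.0442). Against siControl, siNCOA4+DFO also passed in 2 of 12 such fits.

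Ctgf (chromosome 10, 24595442 to 24598683, plus strand) differed with the siRNA, and no change with DFO was detected. Its FPKM was 31.0, 35.3 and 29.1 in siControl and 28.7, 35.5 and 33.6 in siControl+DFO. In siNCOA4 it was 16.1, 17.5 and 13.8 FPKM, and in siNCOA4+DFO 18.8, 19.3 and 16.1 FPKM. The 6 silenced libraries all lay below the 6 libraries with control siRNA. Silencing gave a log2 change of -1.01 (SE 0.12, limma adjusted p = 0.000256) at normal iron and -0.85 (SE 0.12, limma adjusted p = 0.00099) with DFO. The DFO change was 0.04 (95% confidence interval -0.23 to 0.30) with control siRNA and 0.20 (-0.07 to 0.46) with Ncoa4 siRNA.

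Cyr61 (chromosome 3, 145646976 to 145649981, minus strand) had the largest rise of the 9 genes. Its FPKM was 19.3, 20.7 and 19.4 in siControl and 219, 268 and 264 in siControl+DFO. The lowest DFO library stood far above the highest control, and the means differed 12.6-fold. The log2 change was 3.65 (SE 0.16, limma adjusted p = 5.22e-09), the 123rd largest rise of the genes tested. In siNCOA4 the values were 24.96, 24.86 and 23.17 FPKM, and in siNCOA4+DFO 137, 137 and 84.6 FPKM. Replicate 3 of siNCOA4+DFO was the lowest of its group, as it was for Smad7. The log2 change with DFO in silenced cells was 2.25 (SE 0.16, limma adjusted p = 5.29e-07).

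At normal iron the 3 siNCOA4 libraries lay above the 3 siControl libraries for both Smad7 and Cyr61. The share of all tested genes that separate in this way was not counted, so the separation is a description only. The log2 differences were 0.31 (95% confidence interval -0.04 to 0.66, limma adjusted p = 0.252) and 0.29 (-0.04 to 0.63, limma adjusted p = 0.253). Neither passed the test, although Cyr61 did so with the same log2 difference when these groups were fitted alone (adjusted p = 0.0442) or without replicate 3 of siNCOA4+DFO (adjusted p = 0.0341).

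**Figure D2:**
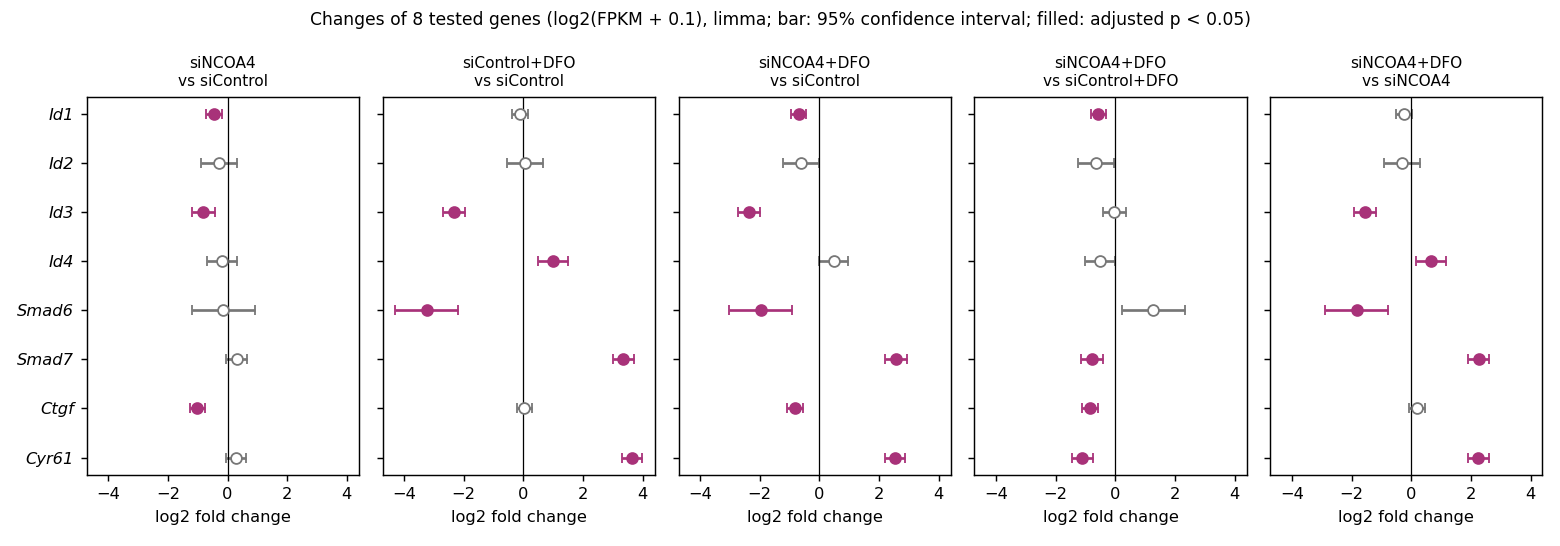
Log2 fold changes of the 8 tested genes (x axis, on log2(FPKM + 0.1)) in the 5 comparisons between groups, with 95% confidence intervals; filled points passed the test. Cyr61 and Smad7 rise and Id3 and Smad6 fall in each of the 3 comparisons that add DFO, while Id1 and Ctgf fall in each of the 3 comparisons that add Ncoa4 siRNA.

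By comparison, silencing at normal iron raised 0 and lowered 3 of the 8 tested genes by limma, when 4.52% of all tested genes rose and 7.21% fell. At an unadjusted p below 0.05 the numbers were again 0 and 3. The share of all genes at that unadjusted cut was not counted, here or below. The median log2 change was -0.23 for the 8 genes and 0.00 for all genes tested. Scaling to the FPKM sum without small RNA genes turned the split over all genes from 539 higher and 860 lower to 857 higher and 565 lower, and Id1 then missed the threshold with -0.38 (limma adjusted p = 0.0722). DFO in siControl cells raised 3 and lowered 2 of the 8, when 27.7% of all genes rose and 25.7% fell. DFO in siNCOA4 cells raised 3 and lowered 2 of the 8 as well, against 23.1% and 19.6% of all genes.

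Both treatments together, siNCOA4+DFO against siControl, raised 2 and lowered 4 of the 8, against 25.4% and 23.4% of all genes. Cyr61 rose by 2.55 (SE 0.16, limma adjusted p = 1.28e-07) and Smad7 by 2.57 (SE 0.16, limma adjusted p = 1.75e-07) on the log2 scale. Id3 had -2.36 (SE 0.17, limma adjusted p = 5.97e-07) and Smad6 -1.97 (SE 0.49, limma adjusted p = 0.00503), the latter -1.25 with a pseudocount of 1. Ctgf had -0.81 (SE 0.12, limma adjusted p = 0.000133) and Id1 -0.69 (SE 0.12, limma adjusted p = 0.000426). Id4, which passed with DFO alone, had 0.48 (95% confidence interval -0.01 to 0.97, limma adjusted p = 0.0979). It passed with 0.65 without replicate 3 of siNCOA4+DFO (adjusted p = 0.0371), and with 0.57 under scaling without small RNA genes (adjusted p = 0.0489).

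Under DFO, silencing raised 0 and lowered 4 of the 8 by limma, against 6.22% and 10.2% of all genes. At an unadjusted p below 0.05 it raised 1, Smad6, and lowered 6, with no counted share of all genes at that cut to set beside them. Cyr61 had a log2 change of -1.10 (SE 0.16, limma adjusted p = 0.00099) and Smad7 of -0.78 (SE 0.16, limma adjusted p = 0.00739), and Ctgf and Id1 fell as given above. Id3 differed by -0.03 (95% confidence interval -0.41 to 0.35). Smad6 was higher by 1.28 (0.22 to 2.34, limma adjusted p = 0.0906) without passing, and the groups overlapped. It passed without replicate 2 of siControl+DFO or of siNCOA4+DFO (adjusted p = 0.0259 and 0.0406). Small RNA genes took 42.3 to 46.1% of the FPKM sum in siControl+DFO and 48.2 to 52.5% in siNCOA4+DFO. Scaling without them moved the median of all genes in this comparison to 0.12 and the split from 742 higher and 1221 lower to 1449 higher and 662 lower. The falls of Cyr61 (-0.97), Ctgf (-0.71), Smad7 (-0.65) and Id1 (-0.44) kept passing under that scaling.

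Whether DFO acted differently in silenced cells was tested as the interaction, the DFO change in siNCOA4 cells minus that in siControl cells. It passed for 2 of the 8 genes, when 2.1% of all genes passed. Cyr61 had -1.39 (SE 0.22, limma adjusted p = 0.0105), and it passed in all 12 fits without 1 library and all 10 other settings. Smad7 had -1.09 (SE 0.23, limma adjusted p = 0.0354). This call was near the threshold and was lost in 9 of the 12 fits without 1 library, with adjusted p up to 0.0816. The fits that kept it were those without replicate 2 of siControl or replicate 1 or 3 of siNCOA4+DFO. Id3 had 0.78 (95% confidence interval 0.25 to 1.32, limma adjusted p = 0.117) and Smad6 1.43 (-0.07 to 2.92, limma adjusted p = 0.3). For Id1, Id2, Id4 and Ctgf the interaction lay between -0.37 and 0.16, with adjusted p of 0.64 or more. The study reported changed morphology and lower viability of cells given both treatments, while neither treatment alone affected viability. The part of this in the siNCOA4+DFO levels and in the interactions was not tested.

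**Figure D3:**
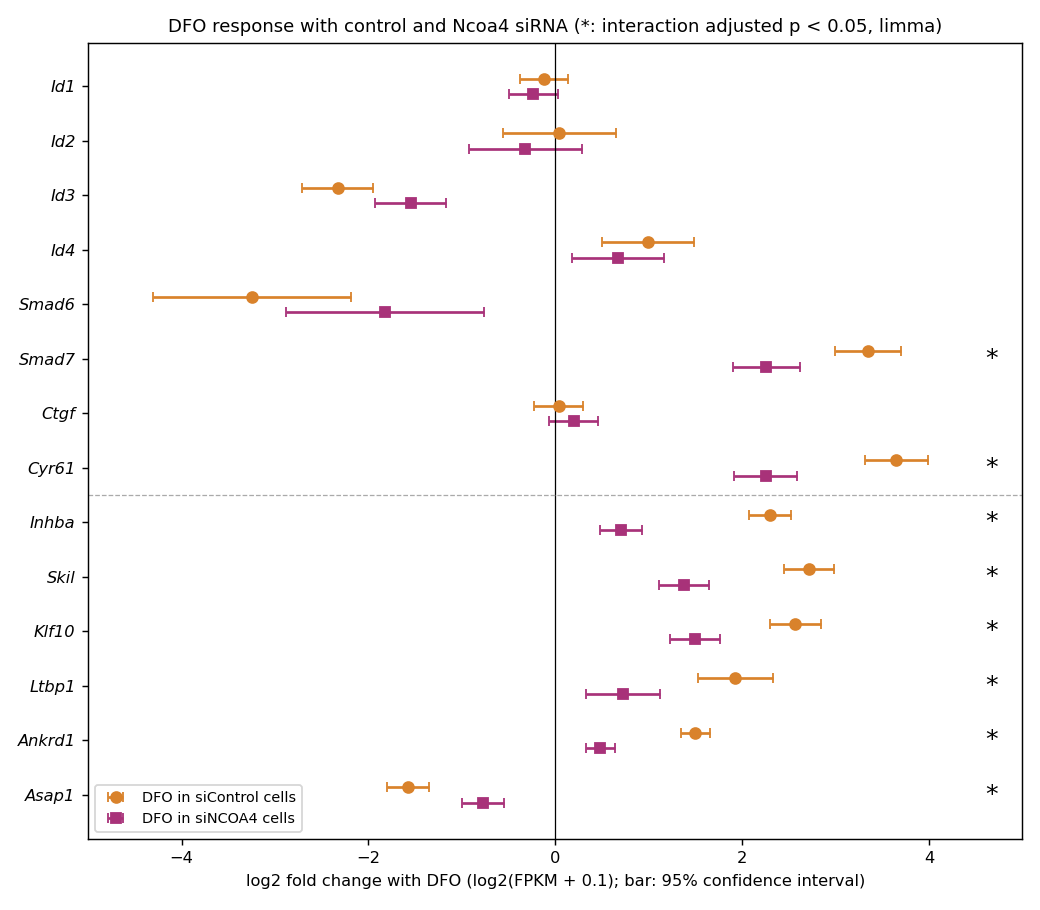
Log2 change with DFO (x axis, on log2(FPKM + 0.1)) in siControl cells (circles) and siNCOA4 cells (squares) with 95% confidence intervals, for the 8 tested genes above the dashed line and 6 genes of the pathway lists below it. Asterisks mark an interaction that passed the test; the rise of Cyr61 is 3.65 in siControl and 2.25 in siNCOA4 cells.

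The rest of the pathway was described from lists of 114 genes, of which 72 could be tested. In siControl+DFO against siControl 27 of the 72 rose and 21 fell (37.5% and 29.2%, when 27.7% and 25.7% of all tested genes did so), and their median log2 change was 0.05 beside -0.01 for all genes. The 27 include Tagln and Hes1, for which no siControl library reached the minimum for testing. The 21 include Wisp2, for which no siControl+DFO library reached it. The DFO counts of the single lists are to be read beside the same shares of all genes. Silencing at normal iron raised 3 and lowered 9 (4.17% and 12.5%, when 4.52% and 7.21% of all genes did so), or 5 and 4 with scaling without small RNA genes. Under DFO it raised 4 and lowered 15 (5.56% and 20.8%, when 6.22% and 10.2% of all genes did so), or 5 and 8 with that scaling.

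Of 6 tested TGF-beta and activin ligands, 2 rose and 1 fell with DFO. Inhba, which encodes the activin A subunit, had FPKM of 8.03, 8.27 and 8.09 in siControl, 13.7, 14.8 and 14.3 in siNCOA4, 44.0, 40.4 and 37.0 in siControl+DFO and 27.0, 22.9 and 20.4 in siNCOA4+DFO. No groups overlapped. It rose by 2.30 with DFO (SE 0.10, limma adjusted p = 8.56e-09) and by 0.80 with silencing (SE 0.10, limma adjusted p = 0.000463), but was lower in siNCOA4+DFO than in siControl+DFO, at -0.79 (SE 0.10, limma adjusted p = 0.000718). Tgfb3 fell by 1.25 with DFO. Tgfb2 rose by 1.08, or by 0.60 with a pseudocount of 1. It missed the threshold with 0.83 without replicate 2 of siControl (limma adjusted p = 0.0704) and with 0.99 without replicate 2 of siControl+DFO (limma adjusted p = 0.0565).

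Of 11 tested receptors and co-receptors, 3 rose and 2 fell with DFO. Rgma, a BMP co-receptor, went from a mean of 27.5 to 5.35 FPKM (log2 change -2.36, SE 0.21, limma adjusted p = 1.49e-06). The type I receptor Tgfbr1 rose from 7.46 to 15.2 FPKM (log2 change 1.02, SE 0.16, limma adjusted p = 0.000224). The type II receptor Tgfbr2 fell from 31.4 to 18.9 FPKM with DFO and to 19.7 FPKM with silencing, and was lowest with both, at 13.8 FPKM. Its log2 changes were -0.73 and -0.67 (SE 0.09 each, limma adjusted p = 3.43e-05 and 0.000715).

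The 6 signalling SMADs were all tested, and 0 passed with silencing at normal iron by limma. At an unadjusted p below 0.05, 1 was higher and 1 lower, without a counted share of all genes. With DFO, Smad1 rose by 1.17 (SE 0.14, limma adjusted p = 1.58e-05) from 10.0 to 22.5 FPKM. Smad3 rose by 0.76 and Smad4 by 0.29. Smad5 had a log2 change of -0.88 (SE 0.15, limma adjusted p = 0.000372), from 14.3 to 7.73 FPKM, and Smad9 of -1.76 (SE 0.37, limma adjusted p = 0.00171), from 1.10 to 0.253 FPKM. The change of Smad9 was -0.74 with a pseudocount of 1 and passed with either, and its 3 DFO libraries lay below the minimum of 0.5 FPKM. The 3 SMADs of the BMP branch therefore did not move together. Smad2 had -0.25 and did not pass.

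Among 9 tested extracellular antagonists and latent TGF-beta binding proteins, 3 rose and 3 fell with DFO. The activin antagonist Fst rose by 2.40 (SE 0.35, limma adjusted p = 9.6e-05) and the related Fstl3 by 1.07. Ltbp1, which tethers latent TGF-beta to the matrix, rose by 1.93 (SE 0.18, limma adjusted p = 3.25e-06), from 2.29 to 9.01 FPKM.

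Of 11 tested intracellular regulators, 7 rose and 0 fell with DFO by limma. At an unadjusted p below 0.05 the numbers were 8 and 0, without a counted share of all genes. Their median log2 change was 0.89 beside -0.01 for all genes. Skil, a co-repressor that holds back SMAD transcription and is itself a TGF-beta target, had FPKM of 4.59, 4.42 and 4.65 in siControl and 33.2, 30.3 and 28.0 in siControl+DFO. The groups were far apart, and the log2 change was 2.71 (SE 0.12, limma adjusted p = 7.73e-09). Smurf1, a ubiquitin ligase of the pathway, rose by 1.20 and the phosphatase Ppm1a by 0.89. Both are described as brakes on SMAD signals, as are Smad6 and Smad7.

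Of 8 other tested response genes, 4 rose and 3 fell with DFO. Of the 4, Tagln, which is named after its values were seen, was listed at 0 in each siControl library and had 0.643, 1.46 and 0.772 FPKM in siControl+DFO. It reached the minimum for testing in the siControl+DFO libraries only and so had to differ. Junb had FPKM of 9.25, 7.83 and 10.1 in siControl and 128, 147 and 119 in siControl+DFO, and Klf10, a TGF-beta-inducible factor, had 9.88, 8.85 and 9.40 and then 60.5, 57.0 and 51.1 FPKM. Both rose clear of the controls, by 3.85 (SE 0.23, limma adjusted p = 7.5e-08) and 2.57 (SE 0.12, limma adjusted p = 1.38e-08). Atoh8, a BMP-responsive helix-loop-helix gene, fell from 17.9 to 2.36 FPKM (log2 change -2.89, SE 0.15, limma adjusted p = 2.53e-08).

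Of 15 tested YAP/TEAD targets, 3 rose and 7 fell with DFO. Ankrd1 rose by 1.50 (SE 0.07, limma adjusted p = 1.35e-08) from 36.9 to 104 FPKM. Ccdc80 fell by 1.74 and Asap1 by 1.57. Silencing at normal iron raised 0 of the 15 and lowered 4 by limma, when 4.52% of all genes rose and 7.21% fell. At an unadjusted p below 0.05 the numbers were 0 and 5, without a counted share of all genes. With scaling without small RNA genes it raised 0 and lowered 2, when over all genes 857 were higher and 565 lower. Asap1 was among the 4 at -0.48 (limma adjusted p = 0.0112, and 0.0515 without replicate 2 of siNCOA4).

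The other CCN genes were on a smaller scale. Wisp1 rose by 0.44 with DFO (SE 0.08, limma adjusted p = 0.00074). Wisp2 had 0.802, 0.639 and 0.343 FPKM in siControl and 0 in each siControl+DFO library, a listed value that gives no fold. Of the partners and relatives of the Id proteins, the E protein gene Tcf3 fell from 43.6 to 22.6 FPKM with DFO (log2 change -0.95, SE 0.12, limma adjusted p = 3.27e-05) and to 25.02 FPKM with silencing (-0.81, SE 0.12, limma adjusted p = 0.00119), and Tcf4 had -0.42 with DFO (SE 0.11, limma adjusted p = 0.00698). Hes1 had 0 FPKM in each siControl library and 0.473, 1.61 and 0.426 FPKM in siControl+DFO. For Hes1 no siControl library and for Wisp2 no DFO library reached the minimum for testing.

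**Figure D4:**
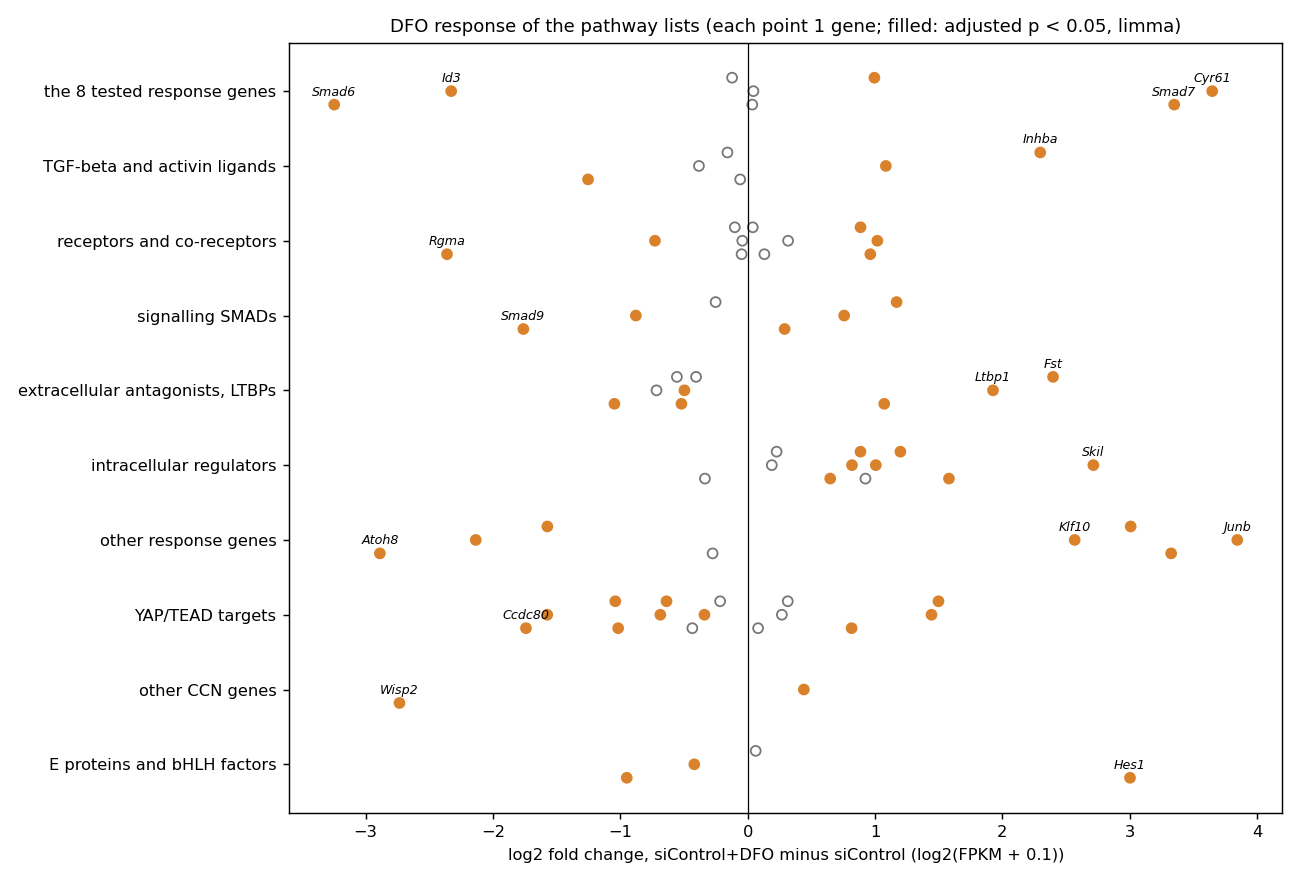
Log2 change between siControl+DFO and siControl (x axis, on log2(FPKM + 0.1)) for each tested gene of the pathway lists (y axis); filled points passed the test. Rises and falls occur in most lists, and in the list of intracellular regulators every filled point is a rise; Hes1 and Tagln in siControl and Wisp2 in siControl+DFO are listed at 0, so their positions depend on the pseudocount.

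The genes whose pattern over the 12 libraries was most like that of Id1 were Sf3b3 (Pearson r = 0.94), Nxt1 (0.93), Sp2 (0.93), Emp1 (0.92) and Tnfaip6 (0.91), of 11923 other tested genes. For Ctgf they were Axl (0.97), Pdia4 (0.97), Sf3b4 (0.96), Ifrd2 (0.96) and Pitpnb (0.95). Axl, a receptor tyrosine kinase and also on the YAP/TEAD list, had group means of 75.3, 28.0, 64.9 and 31.4 FPKM in siControl, siNCOA4, siControl+DFO and siNCOA4+DFO. Between Id1 and Ctgf themselves r was 0.79, and between Ctgf and Cyr61 it was 0.24. The 12 points share groups and libraries, so these values are descriptions.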

How the data were processed

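RNA-seq of 12 HT22 libraries was analysed from 1 table per library. The authors deposited FPKM per gene, in 24347 entries, on mouse build mm10. Submitters' processing notes name Trimmomatic 0.33, FastQC, HISAT2 2.1.0, featureCounts and edgeR without stating their roles. The study's methods give edgeR for normalizing and for testing expression, and the tool that made the FPKM is not given in the sources used here. The kit was stranded. The 4 entries that shared a name were left out, and 6929 of 24343 genes were at 0 in all libraries. Groups and replicate numbers came from the sample titles.

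A means model of the 4 groups was fitted to log2(FPKM + 0.1) with limma 3.58.1 in R 4.3.3 (eBayes with trend, 8 residual and 4.07 prior degrees of freedom), over genes with at least 0.5 FPKM in at least 3 libraries. P-values were adjusted by Benjamini-Hochberg over 11924 genes in each comparison. limma stood in for a count test because the FPKM are not counts, and the pseudocount understates changes of genes at low level. With 3 libraries against 3, an exact two-sided permutation test cannot go below p = 0.1, so none is given. Fragment numbers were estimated from steps between low FPKM values and the median over 99 genes, and cover no other error.

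The 9 genes, the pathway lists and the tests were chosen with earlier results of these data known. In each pathway list, the 3 genes with the lowest adjusted p for DFO in siControl cells among those passing any comparison between groups were named, and all signalling SMADs. For Id1 and Ctgf the 5 most correlated genes were named. Marker lists were for neurons, fibroblast or mesenchymal cells, astrocytes, oligodendrocytes, microglia and endothelial cells; of the last 4, 1 of 7, 1 of 6, 1 of 6 and 0 of 6 markers reached a mean of 0.5 FPKM. Promoters came from RefSeq (GRCm38.p6) and gene positions from GENCODE on GRCm38. Alternatives were pseudocounts of 1 and 0.01, no filter or 2 FPKM, 2 other scalings, the replicate number as a block, the compared groups alone, eBayes without trend or robust, and leaving out each library. Figures used matplotlib 3.10.9 in Python 3.11.15.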

Additional observations from a re-analysis of the deposited data

Results flagged for a closer look

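For 8 genes the change with DFO differed between the siRNAs by the interaction test (limma, adjusted p over all genes tested). Among the 9 response genes these were Cyr61 (-1.39, adjusted p = 0.0105) and Smad7 (-1.09, adjusted p = 0.0354), both on the log2 scale as the DFO change in siNCOA4 cells minus that in siControl cells. Cyr61 rose by 3.65 in siControl and by 2.25 in siNCOA4 cells, and Smad7 by 3.35 and by 2.26.

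Of the pathway genes, Inhba had an interaction of -1.59 (adjusted p = 0.000874), with rises of 2.30 and 0.71. Skil had -1.34 (adjusted p = 0.00387), with rises of 2.71 and 1.38. The interaction of Ltbp1 was -1.20 (adjusted p = 0.0388), with rises of 1.93 and 0.72, and it missed the threshold in 9 of 12 fits without 1 library (adjusted p up to 0.0886). Klf10 had -1.07 (adjusted p = 0.0134), with rises of 2.57 and 1.50. For Ankrd1 the value was -1.02 (adjusted p = 0.000874), with rises of 1.50 and 0.48. Asap1 was the exception in sign, with 0.80 (adjusted p = 0.0182), since its DFO change was -1.57 in siControl and -0.77 in siNCOA4 cells. Its call was lost without replicate 2 or 3 of siNCOA4 or replicate 1 of siControl+DFO (adjusted p 0.0501 to 0.057). In all 8 the change with DFO kept its direction and was smaller in silenced cells. These 8 were taken from genes of lists chosen with results known, and the other 66 of the 72 tested pathway genes did not pass. Of the 72, 1.39% passed with a positive and 6.94% with a negative interaction. Over all tested genes 2.1% passed in either direction. Tfrc, which had group means of 328 FPKM in siControl+DFO and 240 in siNCOA4+DFO, had an interaction of -0.48 (adjusted p = 0.0649). The study, with its own tests, reported a weaker Tfrc response to DFO in depleted cells from RNA-seq, and no response by qPCR. The parts of this lower Tfrc level, and of the lower viability that the study reported with both treatments, in the interactions were not tested.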

How the results depend on the processing

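Under the alternatives, 5 of the 8 genes passed for DFO in siControl cells in every fit, and 4 for silencing under DFO, or 5 in some fits without 1 library. For silencing at normal iron 2 to 4 passed, in place of 3. Both treatments against siControl gave 6 to 7, and DFO in siNCOA4 cells 4 to 5. The interaction passed for 1 gene, Cyr61, in place of 2 with no filter on low values and with eBayes without trend (Smad7 adjusted p = 0.0527 and 0.0596), and for 1 to 2 genes when 1 library was left out. Of the 72 pathway genes, 11 in place of 19 passed for silencing under DFO with the compared groups alone, and 6 to 13 (12 with all libraries) for silencing at normal iron when 1 library was left out, the lowest without replicate 2 of siNCOA4. No change that passed the test turned its sign. Turns occurred in log2 values near 0 that did not pass. Scaling without small RNA genes turned Ctgf with DFO in siControl cells to -0.0041 and Id3 for silencing under DFO to 0.1047. Leaving out 1 library gave -0.0292 to 0.1246 for that Ctgf value, -0.1978 to 0.1676 for Id2 with DFO in siControl cells, -0.2086 to 0.0988 for that Id3 value, -0.3533 to 0.0673 for Smad6 with silencing at normal iron and -0.2145 to 0.0157 for the interaction of Id1. Id4 passed for both treatments against siControl with scaling without small RNA genes (0.57, adjusted p = 0.0489) and missed for DFO in siNCOA4 cells with no filter (adjusted p = 0.0525) or the groups alone (0.0695). Id2 passed for both treatments against siControl without replicate 1 of siControl or of siNCOA4+DFO (adjusted p = 0.0284 and 0.0237). The causes were not tested.

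Same-numbered libraries did not deviate together (r from -0.127 to 0.116 over 18 pairs), and 2 of 12 libraries correlated best with their own number. Libraries with different numbers had r from -0.17 to 0.16. These values gave no sign of pairing by number, but correlations this weak cannot exclude it. With the replicate number as a block, 3, 5, 6, 4 and 5 of the 8 genes passed the comparisons in the order siNCOA4, siControl+DFO and siNCOA4+DFO against siControl, siNCOA4+DFO against siControl+DFO and against siNCOA4. The interaction passed for 2, with no change of call among the 8 genes. Depth limits Smad6 with DFO and Bmp4 most, where a few fragments make each value.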
